A study of Mus minutoides with 4 samples.

Results

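The 9 genes described here encode the Hedgehog receptors, their co-receptors and the GLI transcription factors with their inhibitors: *Ptch1*, *Smo*, *Boc*, *Gas1*, *Hhip*, *Gli1*, *Gli2*, *Gli3* and *Sufu*. They were taken by gene symbol, and all 9 were among the 41325 genes of the deposited tables. The libraries came from induced pluripotent stem cell (iPSC) lines 6 and 10 and from fibroblast lines 1 and 2 of *Mus minutoides*, with 1 library per line, so that each group had n = 2. The fibroblasts were primary cultures from the tail tip, grown in serum medium and not reprogrammed. The iPSCs were made from such fibroblasts with doxycycline-inducible piggyBac plasmids for *Oct3/4*, *Klf4*, *Sox2*, *c-Myc*, *Glis1*, *Nanog* and *Lin28a*, and each line was grown from a picked colony after doxycycline had been withdrawn. They were kept on mitomycin C-treated mouse embryonic fibroblasts in 2i medium, whose inhibitors act on MEK and GSK3, and whether these feeder cells were removed before RNA extraction is not given in the sources used here. Cell type, medium and feeder cells cannot be told apart in this design. The labels do not say whether lines 1 and 2, or 6 and 10, go back to different animals. The p-values therefore cover no more than the spread among these samples, which may be technical.

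In Hedgehog signaling, a secreted ligand binds PTCH1, which otherwise holds the membrane protein SMO inactive. Active SMO at the primary cilium lets the GLI proteins act as activators, whereas without ligand GLI3, and to a lesser degree GLI2, are processed into repressors, and SUFU holds GLI proteins back. *Ptch1*, *Gli1* and *Hhip* are direct GLI targets in mouse tissues and are therefore the usual transcriptional readouts of the pathway. The pathway is best known for patterning the limb and neural tube, and skin fibroblasts receive Hedgehog ligands from the hair follicle.

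Exon reads summed to 33084850 to 36694828 per library. They were compared over all genes with the edgeR quasi-likelihood test, and a gene was called when its Benjamini-Hochberg adjusted p was under 0.05 and its fold over 2. TPM, the exon reads per exon length scaled so that all libraries have an equal sum, is given as the level of a gene. All 10 pluripotency markers checked were called higher in iPSCs, with summed TPM of 6318 and 7038 in iPSC lines 6 and 10 against 1.12 and 1.46 in fibroblast lines 1 and 2, where *Sox2* and *Eras* were at 0. *Pou5f1* (*Oct3/4*), *Sox2* and *Nanog* among them were also plasmid factors. Of 20 fibroblast and connective tissue markers, 14 were called lower and 1 higher, and none was at 0 in either group. Their summed TPM was 11851 and 6315 in iPSC lines 6 and 10, against 39190 and 45849 in fibroblast lines 1 and 2, which puts iPSC line 6 at 27.9% and iPSC line 10 at 14.9% of the fibroblast mean. Macrophage markers (6 genes, 5 called higher) summed to 245 and 599 TPM in iPSC lines 6 and 10 against 1.69 and 2.15 TPM in the fibroblast lines, where *Adgre1*, *C1qa* and *Lyz2* were at 0. Endothelial markers (5 genes) summed to 22.2 and 15.2 TPM in iPSC lines 6 and 10 against 0.814 and 1.28 TPM in fibroblast lines 1 and 2. Of the 4 tested, 3 were called higher. Only 1 of the 5 reached 1 TPM in each iPSC line, so that the sums rest mostly on a single gene. Keratinocyte markers (1 called higher and 1 lower of 4) summed to 8.14 and 8.07 TPM in the iPSC lines against 13.8 and 13.5 TPM in the fibroblast lines. Schwann cell markers (2 of 4 called higher) summed to 5.94 and 9.47 TPM against 1.11 and 1.93 TPM.

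All 9 genes passed the filter on low counts. *Ptch1*, *Gli1* and *Hhip* rose in iPSCs, while the signal transducer *Smo*, the co-receptors *Boc* and *Gas1* and the factor *Gli3* fell. Although *Ptch1*, *Gli1* and *Hhip* are the usual readouts of the pathway, pathway activity itself was not measured. *Gli2* and *Sufu* were not called. Thus 3 of 9 were called higher, where 27.1% of all 17777 genes tested were, and 4 of 9 were called lower, where 22.3% of all genes tested were. The median log2 fold change (iPSC over fibroblast) of the 9 genes was -0.14, also with *Hhip* at its lower bound, and that of all genes tested was 0.08. With nearly as many genes called in either direction as not (49.4%), the number of calls does not set the 9 genes apart from the rest.

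**Figure D1:**
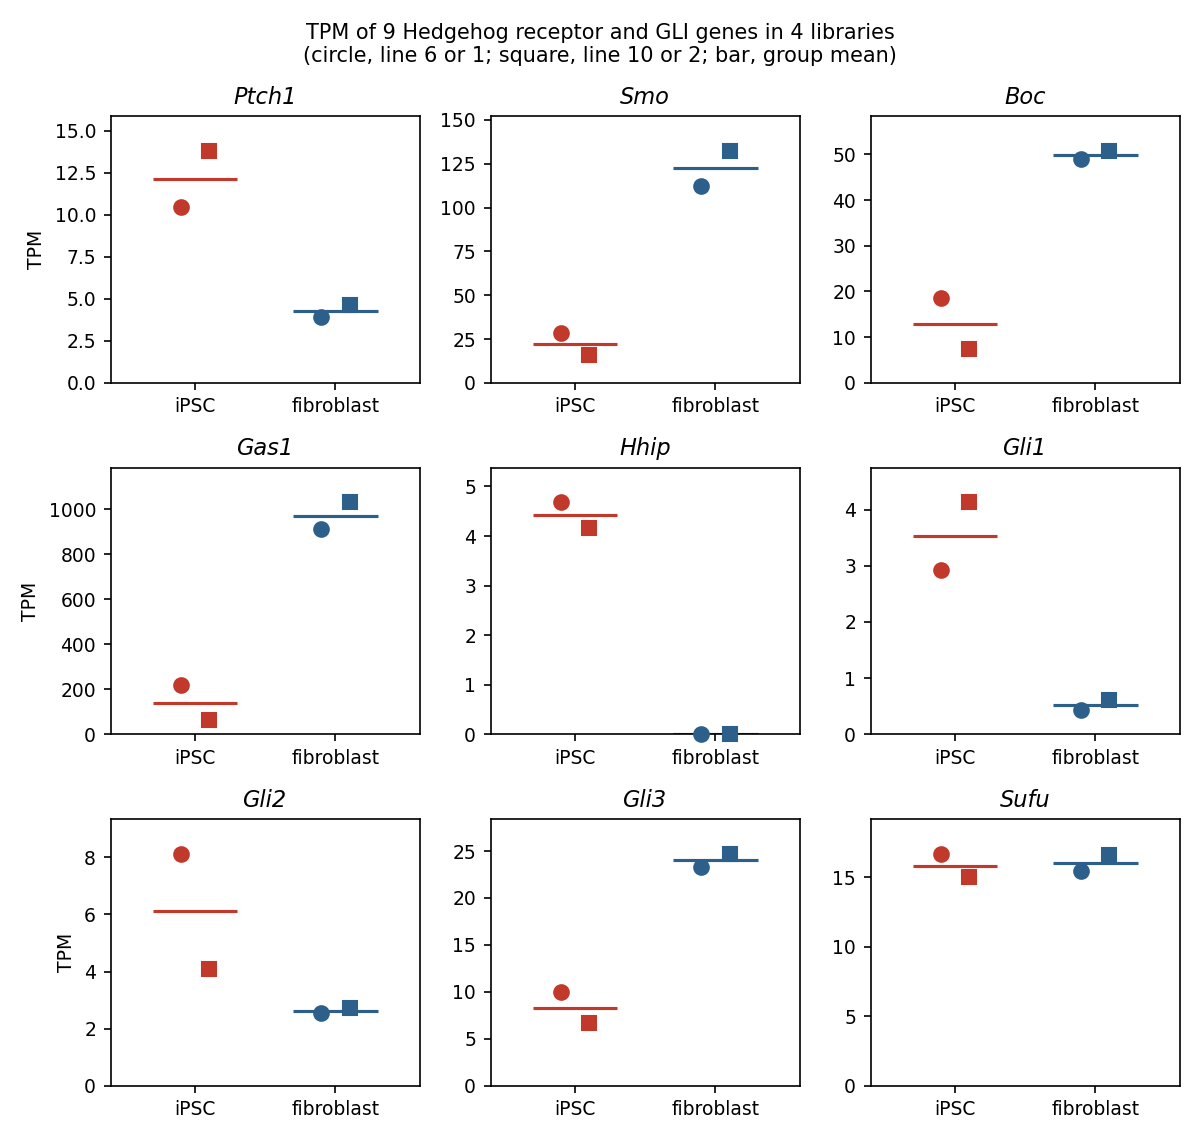
TPM (linear axes from 0, a separate scale for each gene) of the 9 genes in the iPSC libraries (red; circle, line 6; square, line 10) and the fibroblast libraries (blue; circle, line 1; square, line 2), with a bar at each group mean. The groups do not overlap for 8 genes, and *Sufu* lies between 15.0 and 16.7 TPM in all 4 libraries. Of all genes tested, 48.7% stood higher and 37.8% lower in iPSCs without overlap.

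*Ptch1* encodes the receptor that binds the ligand and represses SMO. It lies on chromosome 13 from 63508328 to 63573598 of the *M. musculus* build GRCm38 (minus strand, ENSMUSG00000021466). Its TPM was 10.5 and 13.8 in iPSC lines 6 and 10, against 3.94 and 4.64 in fibroblast lines 1 and 2, from 1623 and 1985 exon reads in the iPSC lines and 520 and 565 in the fibroblast lines. Both iPSC lines were above both fibroblast lines, and the log2 fold change was 1.37 (standard error, SE, of 0.15, and edgeR adjusted p = 0.0019).

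*Smo* encodes the membrane protein that passes the signal on. It lies on chromosome 6 from 29735503 to 29761365 (plus strand, ENSMUSG00000001761). *Smo* had a TPM of 28.2 and 16.1 in iPSC lines 6 and 10, against 112 and 132 in fibroblast lines 1 and 2. Its mean TPM in iPSCs was 18.1% of that in fibroblasts. On normalized exon reads the log2 fold change was -2.58 (SE 0.30, edgeR adjusted p = 0.0021). In bulk samples, fewer cells that express a gene and less RNA of it per cell cannot be told apart. Receptor and transducer thus changed in opposite directions. The TPM of *Smo* was 2.69 and 1.17 times that of *Ptch1* in iPSC lines 6 and 10, and 28.5 times in each of the fibroblast lines.

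The reads of *Smo* also differed in where they lay. Introns held 54.4% and 71.4% of its gene reads in iPSC lines 6 and 10, and 18.3% and 17.9% in fibroblast lines 1 and 2. The median over the 13053 genes with at least 50 gene reads in every library was 12.0% and 12.1% in the iPSC lines and 10.7% and 10.3% in the fibroblast lines. In CPM, counts scaled to the normalized total of exon reads, the intron reads of *Smo* stood at 51.6 and 60.6 in iPSC lines 6 and 10, against 44.0 and 45.6 in fibroblast lines 1 and 2, so that the lower level in iPSCs was one of exon reads. No other annotated gene of the tables overlaps *Smo*. When gene reads, which add the intron reads, were used, *Smo* was still called lower, with a log2 fold change of -1.58 (edgeR adjusted p = 0.00046).

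*Boc* and *Gas1* encode cell surface proteins that bind Hedgehog ligands together with PTCH1 and promote signaling in the mouse embryo. *Boc*, an immunoglobulin superfamily member, lies on chromosome 16 from 44485049 to 44558897 (minus strand, ENSMUSG00000022687). Its TPM was 18.6 and 7.35 in iPSC lines 6 and 10, against 49.0 and 50.7 in fibroblast lines 1 and 2. The groups did not overlap, and the log2 fold change was -2.06 (SE 0.46, edgeR adjusted p = 0.015). This call was lost when either fibroblast library was left out, with an adjusted p of 0.059 without line 1 and 0.054 without line 2. Without iPSC line 6 the log2 fold change was -2.91, and without iPSC line 10 it was -1.54.

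*Gas1* encodes a membrane-anchored protein and is the most abundant of the 9 genes in both cell types. It lies on chromosome 13 from 60174405 to 60177365 (minus strand, ENSMUSG00000052957). *Gas1* was at 218 and 62.0 TPM in iPSC lines 6 and 10, against 912 and 1029.8 TPM in fibroblast lines 1 and 2. The iPSC mean was 14.4% of the fibroblast mean, and the log2 fold change was -2.91 (SE 0.64, edgeR adjusted p = 0.014). The iPSC libraries differed from each other by a factor of 3.51 and the fibroblast libraries by a factor of 1.13. Without iPSC line 6 the log2 fold change was -4.12, and without iPSC line 10 it was -2.28. About 85% of the *Gas1* exon reads (84.6% to 85.3%) were uniquely placed, the lowest share among the 9 genes, and they were the same share in all libraries to within a percentage point. The annotated gene Gm48488 overlaps *Gas1* on the opposite strand over 684 bases. It had 155 and 65 exon reads in iPSC lines 6 and 10, against 458 and 386 in fibroblast lines 1 and 2. Its part in the *Gas1* reads was not tested.

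*Hhip* encodes a membrane glycoprotein that binds Hedgehog ligands and withholds them from PTCH1. It lies on chromosome 8 from 79965851 to 80058006 (minus strand, ENSMUSG00000064325). *Hhip* had 464 and 383 exon reads in iPSC lines 6 and 10 and none in either fibroblast library, at a TPM of 4.68 and 4.16 in the iPSC lines and 0 in the fibroblast lines. Against a floor of 3 reads over the fibroblast group, which is 0.0497 CPM, *Hhip* was at least 219-fold higher in iPSCs (edgeR adjusted p = 0.00058). This floor covers counting error only. Exon junctions held 104 and 80 of the reads in iPSC lines 6 and 10, and the fibroblast libraries held 9 and 6 reads of the gene, all in introns. On gene reads, which count these, the log2 fold change was 5.30 (edgeR adjusted p = 0.0003). As the reads of *M. minutoides* were placed on the *M. musculus* genome, a level of 0 is one of reads that could be placed there. The fibroblast marker *Fbln1*, singled out with its values known as the 1 of 20 such markers called higher where 14 were lower, was near 0 in fibroblasts, with a TPM of 177 and 69.2 in iPSC lines 6 and 10 against 0.664 and 0.747 in fibroblast lines 1 and 2. The part of feeder cell RNA in the *Hhip* reads was not tested.

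**Figure D2:**
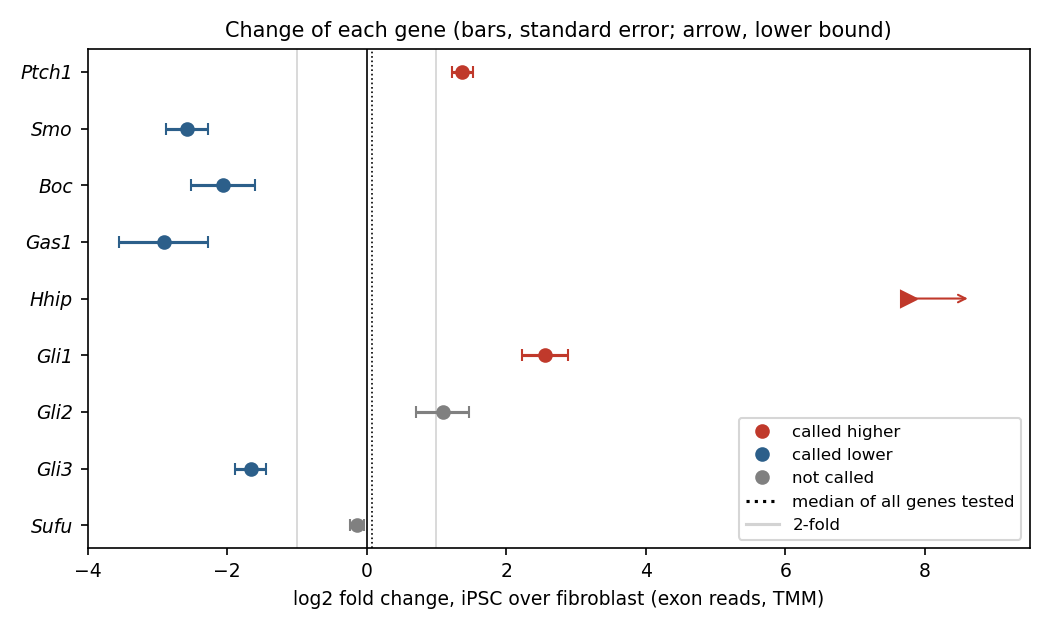
Log2 fold change (iPSC over fibroblast, exon reads with TMM normalization) of the 9 genes, with bars for the standard error, a dotted line at the median of all genes tested and grey lines at a fold of 2. *Ptch1*, *Hhip* and *Gli1* lie to the right, *Hhip* as a lower bound drawn as an arrow, and *Smo*, *Boc*, *Gas1* and *Gli3* to the left.

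Of the GLI factors, *Gli1* was called higher, *Gli3* lower and *Gli2* was not called. *Gli1* encodes an activator that is itself a target of the pathway. It lies on chromosome 10 from 127329882 to 127341974 (minus strand, ENSMUSG00000025407). *Gli1* had 160 and 209 exon reads in iPSC lines 6 and 10, against 20 and 26 in fibroblast lines 1 and 2. Its TPM was 2.93 and 4.13 in the iPSC lines and 0.430 and 0.607 in the fibroblast lines. *Gli1* had the lowest mean TPM of the 9 genes in iPSCs, though *Gli2* was lower in line 10. It rose relative to fibroblasts with a log2 fold change of 2.56 (SE 0.33, edgeR adjusted p = 0.0028). The annotated genes *Arhgap9* and Gm47200 overlap *Gli1* on the opposite strand. *Arhgap9*, which shares 62 bases with it, had 381 and 514 exon reads in iPSC lines 6 and 10, against 15 and 9 in the fibroblast lines, and its part in the *Gli1* reads was not tested. Exon junctions held 27 and 61 reads of *Gli1* in iPSC lines 6 and 10, against 10 and 8 in fibroblast lines 1 and 2.

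*Gli2*, the main activator at the start of the response in the mouse embryo, lies on chromosome 1 from 118834132 to 119053619 (minus strand, ENSMUSG00000048402). It was at 8.13 and 4.09 TPM in iPSC lines 6 and 10, against 2.54 and 2.72 TPM in fibroblast lines 1 and 2. Although the groups did not overlap, the log2 fold change of 1.09 (SE 0.38) missed the threshold with an adjusted p of 0.055 from edgeR. Without iPSC line 10 *Gli2* was called higher (log2 fold change 1.5, edgeR adjusted p = 0.00033), and without iPSC line 6 its log2 fold change was 0.48. DESeq2 also called it higher (log2 fold change 1.10, adjusted p = 0.017).

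*Gli3*, which acts mainly as a repressor in the absence of ligand, lies on chromosome 13 from 15463235 to 15730026 (plus strand, ENSMUSG00000021318). Its TPM was 9.96 and 6.64 in iPSC lines 6 and 10, against 23.3 and 24.7 in fibroblast lines 1 and 2. *Gli3* fell by 1.66 on the log2 scale (SE 0.22, edgeR adjusted p = 0.0031), and the iPSC mean was 34.6% of the fibroblast mean. Introns held 24.0% and 33.5% of its gene reads in iPSC lines 6 and 10, against 13.4% and 12.0% in fibroblast lines 1 and 2. Its raw intron reads were 330 and 325 in the iPSC lines and 322 and 277 in the fibroblast lines. Unlike those of *Smo* above, they were not scaled to the normalized totals, which were larger in the iPSC lines. These raw counts therefore do not show a higher intron level in iPSCs. On gene reads the log2 fold change was -1.50 (edgeR adjusted p = 0.002).

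The make-up of the GLI transcripts differed between the cell types. *Gli3* made up 47.4% and 44.7% of the summed TPM of the 3 genes in iPSC lines 6 and 10, and 88.7% and 88.1% in fibroblast lines 1 and 2. *Gli1* made up 13.9% and 27.8% in the iPSC lines and 1.64% and 2.17% in the fibroblast lines. *Gli2* accounted for 38.7% and 27.5% in the iPSC lines and for 9.64% and 9.69% in the fibroblast lines. The summed TPM itself was 21.0 and 14.9 in iPSC lines 6 and 10, against 26.3 and 28.0 in fibroblast lines 1 and 2. No test was run on these shares. The exact permutation test for a single value cannot give a two-sided p below 0.333 with 2 libraries against 2. They concern transcripts, and the counts do not show how much GLI protein was processed into repressor.

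**Figure D3:**
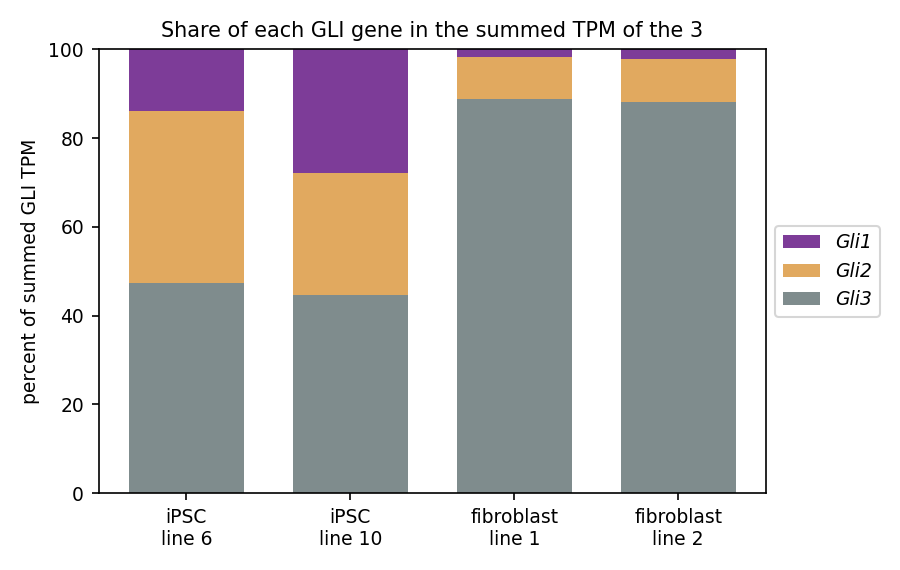
Percent of the summed TPM of *Gli1*, *Gli2* and *Gli3* taken by each gene in the 4 libraries, iPSC lines on the left and fibroblast lines on the right. *Gli3* takes 44.7% to 47.4% in the iPSC libraries and 88.1% to 88.7% in the fibroblast libraries.

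*Sufu* encodes the cytoplasmic protein that binds GLI factors and restrains them. It lies on chromosome 19 from 46396896 to 46488804 (plus strand, ENSMUSG00000025231). The TPM of *Sufu* was 16.7 and 15.0 in iPSC lines 6 and 10, against 15.5 and 16.6 in fibroblast lines 1 and 2, so that the groups overlapped. Its log2 fold change was -0.14 (SE 0.10, edgeR adjusted p = 0.27), and it turned to 0.14 with library totals and 0.03 with upper-quartile factors in place of TMM. By mean TPM, the order in iPSCs was *Gas1*, *Smo*, *Sufu*, *Boc*, *Ptch1*, *Gli3*, *Gli2*, *Hhip* and *Gli1*. In fibroblasts it was *Gas1*, *Smo*, *Boc*, *Gli3*, *Sufu*, *Ptch1*, *Gli2*, *Gli1* and *Hhip*. In iPSCs the lines of neighbours in this order overlapped, except for *Gas1* and *Smo*, *Ptch1* and *Gli3*, and *Hhip* and *Gli1*, which lay apart. In fibroblasts no neighbours overlapped.

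The groups did not overlap in TPM for 8 of the 9 genes, 4 higher and 4 lower in iPSCs. Of the 17777 genes tested, 48.7% stood higher and 37.8% lower in iPSCs without overlap.

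The iPSC lines differed from each other more than the fibroblast lines did for most of the 9 genes, and not all in the same direction. *Gas1*, *Boc*, *Gli2*, *Smo* and *Gli3* were 3.51, 2.53, 1.99, 1.75 and 1.5 times as high in iPSC line 6 as in iPSC line 10. *Hhip* and *Sufu* differed less, at 1.12 and 1.11 times. *Ptch1* and *Gli1* went the other way, at 0.759 and 0.710 times. All 20 fibroblast markers were higher in line 6, with a median ratio of 2.16, where the median over all genes tested was 0.968. The macrophage markers had the opposite order, and their summed TPM in line 6 was 0.41 times that in line 10. The levels of *Smo* (23.0% and 13.2% of the fibroblast mean in iPSC lines 6 and 10), *Gas1* (22.4% and 6.39%), *Boc* (37.3% and 14.8%) and *Gli3* (41.5% and 27.7%) stand beside 27.9% and 14.9% for the marker sum. That sum is weighted to the most abundant markers. Single markers ranged from 3.14% of the fibroblast mean (*S100a4*, line 10) to 25010% (*Fbln1*, line 6). The part of fibroblast-type or macrophage-type RNA in these levels was not tested. There was 1 library per line, so the differences between lines have no replicate check.

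**Figure D4:**
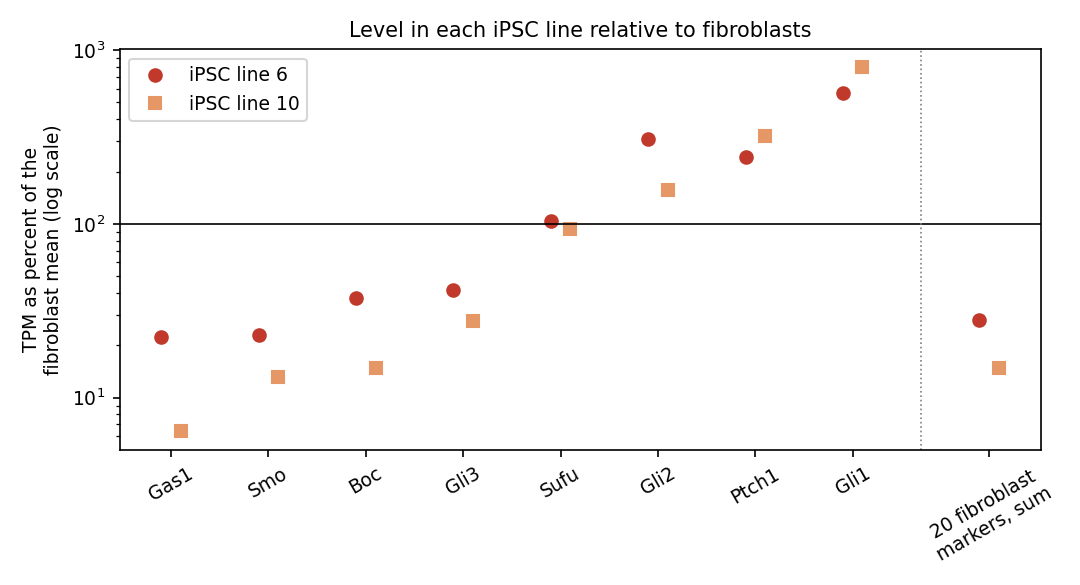
TPM in iPSC line 6 (circles) and iPSC line 10 (squares) as a percent of the fibroblast mean on a log axis, for the 8 genes with fibroblast exon reads and for the summed TPM of the 20 fibroblast markers. *Gas1*, *Smo*, *Boc* and *Gli3* lie below 100% and higher in line 6, as the marker sum does, while *Ptch1* and *Gli1* lie above 100% and higher in line 10. *Gli2* lies above 100% and higher in line 6, and *Sufu* lies near 100% in both lines.

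Beyond the 9 genes, 57 other genes of the pathway were examined by role, and 52 of them passed the filter. Of these, 12 were called higher and 18 lower, with a median log2 fold change of -0.31, where 27.1% of all genes tested were higher and 22.3% lower, with a median of 0.08. None of the 3 ligand genes passed the filter. *Ihh* had 13 exon reads over both iPSC libraries and 9 over both fibroblast libraries, and *Dhh* had 11 and 8. *Shh*, named here after its values were seen, had 13 reads in iPSCs and 1 in fibroblasts, a ratio of 10.1 (exact 95% counting interval 1.51 to 428). This interval covers counting error only and not the spread between lines, and *Shh* was too low to test. At these depths a difference in *Ihh* or *Dhh* was not detectable. Of the genes that process or release the ligand, *Disp1*, whose product exports it, fell (log2 fold change -1.47, edgeR adjusted p = 0.00048). Its introns held 2441 and 2466 reads in iPSC lines 6 and 10, against 662 and 639 in the fibroblast lines, and on gene reads its log2 fold change was 0.08. *Scube1* was called higher at a TPM of 0.475 and 0.461 in iPSCs against 0.0328 and 0.0119 in fibroblasts (log2 fold change 3.39, and 1.04 on gene reads), a call lost with limma on log2(TPM + 1) and no filter (0.52). The acyltransferase gene *Hhat* (log2 fold change -0.07) and *Scube3* (0.27) were not called.

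Other receptor genes changed in both directions. *Cdon*, which encodes a co-receptor related to BOC, fell to 25.3 and 13.2 TPM in iPSCs, against 66.6 and 69.0 TPM in fibroblasts (log2 fold change -1.94, edgeR adjusted p = 0.0068). Like *Boc* and *Gas1*, it was higher in iPSC line 6 than in line 10. *Lrp2*, an endocytic receptor that binds SHH in the mouse forebrain, was at 10.6 and 9.26 TPM in iPSCs and 0.0386 and 0.0768 TPM in fibroblasts (log2 fold change 7.05, edgeR adjusted p = 0.00018, and 4.64 on gene reads). *Gpc3*, a glypican that binds the ligand, was also called higher (log2 fold change 1.17).

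Genes that act at the cilium or between SMO and GLI gave 8 lower and 0 higher of 14, with a median log2 fold change of -1.26. Of all genes tested, 22.3% were lower and 27.1% higher. The largest changes were those of *Evc* (log2 fold change -2.46), whose product binds SMO at the base of the cilium, the ciliary GTPase gene *Arl13b* (-1.86) and *Gpr161* (-1.51), a ciliary receptor that keeps the pathway off. The call of *Gpr161* was lost with glmTreat, a test against the fold threshold itself (adjusted p = 0.059). The adapter gene *Tulp3*, which brings GPR161 into cilia, had a log2 fold change of -0.84 and did not pass the fold threshold. *Grk2* was at 62.6 and 72.4 TPM in iPSCs and 57.6 and 61.2 TPM in fibroblasts. Of 10 genes for kinases and their subunits that act on GLI proteins, 4 were lower and 0 higher, among them *Dyrk2* (log2 fold change -1.69), *Gsk3b* (-1.67) and *Stk36* (-1.36), and *Prkar1a* (-0.53) and *Csnk1a1* (-0.04) were not called. The call of *Stk36* was lost without fibroblast line 2 (log2 fold change -1.24, edgeR adjusted p = 0.052) and with glmTreat (adjusted p = 0.085). *Gsk3b* was at 23.9 and 21.5 TPM in iPSCs and 60.4 and 71.8 TPM in fibroblasts. Among 6 genes of GLI turnover, the ubiquitin ligase adapter gene *Spop* was the one called (log2 fold change -1.21), and the cullin genes *Cul1* (0.05) and *Cul3* (0.13) were not. *Spop* was not called with library totals in place of TMM (log2 fold change -0.93) or with glmTreat (adjusted p = 0.092).

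*Zic1* and *Zic2*, which encode zinc finger proteins that can bind GLI proteins, rose. *Zic2* was at 163 and 203 TPM in iPSC lines 6 and 10, against 0.224 and 0.243 TPM in fibroblast lines 1 and 2 (log2 fold change 9.12, edgeR adjusted p = 0.00013). *Zic1* was at 3.66 and 2.23 TPM in iPSCs and 0.0755 and 0.0614 TPM in fibroblasts (log2 fold change 4.73, edgeR adjusted p = 0.0012).

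Genes known as Hedgehog targets in some tissues did not move one way. Of 12 such genes 11 were tested, and 5 were higher and 3 lower in iPSCs, beside 27.1% and 22.3% of all genes tested. *Mycn*, a MYC family gene, was at 279 and 377 TPM in iPSCs and 0.0979 and 0.389 TPM in fibroblasts (log2 fold change 9.98, edgeR adjusted p = 0.00023). It had 3 and 11 exon reads in fibroblast lines 1 and 2, and its log2 fold change was 9.42 without line 1 and 10.85 without line 2. *Sfrp1*, which encodes a secreted WNT antagonist, was at 217 and 190 TPM in iPSCs and 5.61 and 7.47 TPM in fibroblasts (log2 fold change 4.83, edgeR adjusted p = 0.00016). The floor plate and endoderm gene *Foxa2* had 86 exon reads in iPSCs and 1 in fibroblasts, a ratio of 66.6 (exact 95% counting interval 11.6 to 2660.1, edgeR adjusted p = 0.0029). The mesenchymal target gene *Foxf1* (log2 fold change 0.46) and the ciliary gene *Rab34* (0.15) were not called. The genes called lower were *Bcl2* (-3.32), *Ccnd1* (-1.60) and *Ccnd2* (-1.29), which are outside the rule for named genes and were picked with their values known. These genes have other regulators as well, and the list was not tested as a set.

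**Figure D5:**
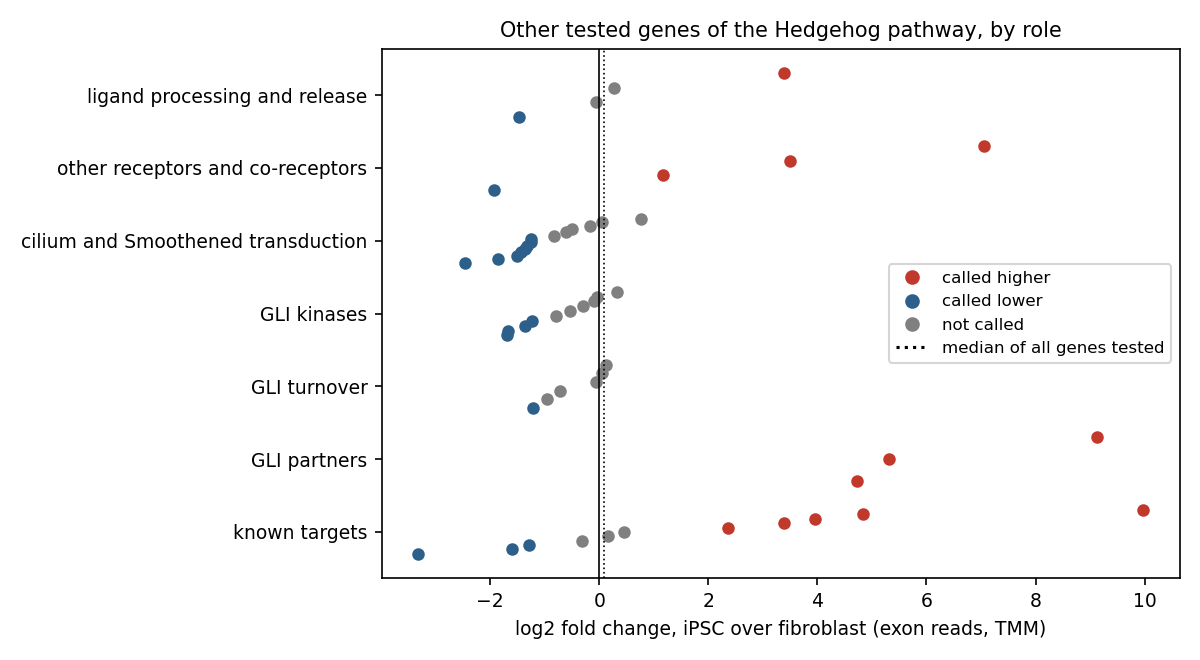
Log2 fold change (iPSC over fibroblast, exon reads with TMM normalization) of the 52 tested genes of the wider pathway, each point a gene, placed by role and coloured by its call, with a dotted line at the median of all genes tested. The 8 called genes of the cilium and Smoothened group lie to the left.

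The genes whose TPM profile lay nearest to that of each readout were found by the Euclidean distance of log2(TPM + 1) over the 4 libraries among 22802 named genes. For *Ptch1* they were *Smad9*, *Nnat* and *Lyn*, at distances of 0.223, 0.227 and 0.231. For *Gli1* they were *Ttyh1*, *Notch4* and *Grm4*, at 0.194, 0.196 and 0.250. For *Hhip* they were *Mt3*, *Pax8* and *Kcnu1*, at 0.0606, 0.0667 and 0.108, all listed at 0 in both fibroblast libraries. Over 4 libraries such a distance describes a shared level and contrast only.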

How the data were processed

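RNA-seq was performed by the authors on total RNA of 2 iPSC lines and 2 fibroblast lines of *M. minutoides* with an Illumina NovaSeq instrument. The deposited tables hold, per library, counts of gene, exon, intron and junction reads, TPM, RPKM, fractions and annotation columns for the *M. musculus* build GRCm38, which the submitters' processing notes name. For the aligner and counter, no name is given in the sources used here. Deposited TPM was recomputed from exon reads and exon length and matched. RPKM and the fractions deposited by the authors were not used. No statement on strand was found, so reads of overlapping genes cannot be told apart.

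The total exon reads were fitted in edgeR 4.0.16 (R 4.3.3) with filterByExpr, TMM (factors 1.09, 1.12, 0.891 and 0.92 for iPSC lines 6 and 10 and fibroblast lines 1 and 2), a prior count of 2 and the quasi-likelihood test over all genes. Standard errors are the log2 fold change over the root of the quasi F statistic. Alternatives were gene reads, unique exon reads, DESeq2 1.42.0, other normalizations, filters and fold thresholds, limma 3.58.1 on log2 TPM, and each library left out. The fit was tested on simulated data in which few genes changed, equally in both directions. Such data do not check the normalization where many genes change. The median chi-square per gene between libraries of a pair was 5.20 for iPSCs and 1.54 for fibroblasts, where sampling alone gives 0.455, so that no library was a copy of another.

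The 9 genes, the wider list and the tests were chosen with earlier results of these data known. Named are the 9 genes, from each role of the wider list up to 3 called genes with the largest change and up to 2 others with the most reads, and the 3 nearest profiles of *Ptch1*, *Gli1* and *Hhip*. Others are said to be named after their values were seen. *Gpc3* was likewise named after its value was seen. No sequences are shown, as no reference sequence was used here. A few genes picked in this way are not reported here.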

Additional observations from a re-analysis of the deposited data

How the results depend on the processing

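Under 18 alternative settings, *Ptch1*, *Gli1* and *Hhip* were called higher and *Smo*, *Gas1* and *Gli3* lower in each. *Boc* was lower in each but was not called with glmTreat (log2 fold change -2.06, adjusted p = 0.058) or without either fibroblast library, its log2 fold change running from -2.91 to -1.54 over the left-out libraries. *Gli2* was called higher with DESeq2 (1.10), library totals (1.36), upper-quartile factors (1.26), a mean of at least 50 reads (1.18) and limma on log2(TPM + 0.1) (1.11), and ran from 0.48 to 1.5 over the left-out libraries. *Sufu* was at 0.14 with library totals and 0.03 with upper-quartile factors. Library totals in place of TMM moved the median of all genes by 0.28 and the split of all calls to 5768 higher and 3028 lower, against 4818 and 3962 with TMM. Without a fold threshold 5965 genes were lower. With limma on log2(TPM + 1), which understates the change of low genes, *Hhip* was at 2.44 and *Gli1* at 1.57. With glmTreat 11 genes of the wider list were lower. On gene reads per exon length *Gli3* took 48.6% of the GLI sum in iPSCs and 86.7% in fibroblasts, and *Gli2* took 11.3% in fibroblasts.

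Alternatives were summarised for the 28 tested genes of the wider list that the rule names, and among these the sign turned for *Disp1* on gene reads (0.08), and otherwise for genes that had not been called. These were *Hhat* with library totals (0.21), upper-quartile factors (0.10), a mean of at least 50 reads (0.02) and limma (0.04, 0.05 and 0.04), and *Csnk1a1* in the same settings (0.24, 0.14, 0.05, 0.08, 0.09 and 0.08). On gene reads *Scube3* was at -0.44, *Grk2* at -0.06, *Cul3* at -0.01 and *Cul1* at -0.06. Over the left-out libraries *Hhat* ran from -0.26 to 0.07, *Grk2* from -0.05 to 0.13 and *Cul1* from -0.12 to 0.17. Each such fit leaves a group with 1 library, which is assumed to vary like the other group. The causes were not tested. No paired analysis was possible because the lines of the groups share no number in the labels. At these depths the ligand genes, *Scube2* and *Nkx2-2* were too low to test.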

Other observations

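Among the 13053 genes with at least 50 gene reads in every library, the share of reads in introns was higher in both iPSC lines than in both fibroblast lines by at least as much as for *Smo* (36.1 percentage points between the lowest iPSC and the highest fibroblast library) in 75 genes, 0.575% of them. For *Disp1* the gap was 46.2 points, reached by 34 genes. Intron reads of *Disp1* stood at 61.0 and 65.0 CPM (counts scaled to the normalized total of exon reads) in iPSC lines 6 and 10 against 22.1 and 21.0 in fibroblast lines 1 and 2, while its exon reads stood at 18.1 and 17.0 CPM in the iPSC lines against 50.7 and 46.8 in the fibroblast lines. The deposited counts do not show whether these intron reads belong to unspliced transcripts of the genes.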
